A study of Homo sapiens with 12 samples.

Results

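The 40 genes described here code for the machinery that licenses origins, unwinds the template and copies DNA in S phase. They were taken by name as a set, with earlier results of these data known. Shares of all genes given below are therefore background and no test of the set. The 40 were matched through their Ensembl identifiers to 40 of the 58735 rows of a raw count table. They comprise 5 origin licensing genes, the 6 subunits of the MCM2-7 helicase, 6 helicase activation genes, 8 polymerase and primase genes, and 5 genes of the sliding clamp and its loader. A further 2 genes act in Okazaki fragment maturation, 4 in the control of S phase entry, 3 in chromatin assembly and maintenance and 1 in fork protection. All 40 passed the filter on low counts.

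The cells were OCI-AML2, a line grown from a human acute myeloid leukemia with a rearranged KMT2A gene. Cells had been infected with lentivirus carrying the control guide sgLuc (labelled WT) or 1 of 2 guides, sgUTX_2 or sgUTX_4 (both labelled UTX knockout), against KDM6A, which encodes UTX, an enzyme that removes methyl groups from histone H3K27. Each of the 3 kinds of cell was kept for 6 days in DMSO or in 1 µM SGC0946, an inhibitor of the histone H3K79 methyltransferase DOT1L. With 2 libraries in each of the 6 combinations, there were 12 in all, and each treatment had 2 control libraries and 4 that are called sgUTX below. All 6 groups share the 1 cell line, the lentiviral infection and the medium, and the sources used here do not say whether infected cells were pools or clones. Whether the paired libraries of a combination were separate cultures is not said either, and the p-values rest on a spread between libraries that may be technical alone.

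In a dividing cell, the origin recognition complex, CDC6 and CDT1 load the MCM2-7 helicase onto DNA in G1, and geminin blocks a further round of loading in S phase. CDC45 and the GINS complex then join MCM2-7 to form the active helicase, primase and DNA polymerase alpha start each strand, and polymerases delta and epsilon extend it on the ring-shaped clamp PCNA. Cyclin E and the E2F transcription factors govern entry into S phase, and many replication genes are textbook E2F targets whose transcripts peak around the G1/S boundary. In bulk RNA such as this, more cells in S phase and more transcript per cell cannot be told apart.

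The promoters of a few members are printed here as examples. E2F1, E2F2, PCNA and MCM6 carry close matches to the E2F recognition word, and PRIM2 carries none. Each line is the 100 bases before a RefSeq start site on GRCh38.p14, read 5′ to 3′ on the gene's strand. PCNA and PRIM2 each have a further start, not printed, without an E2F word. The capitals mark the E2F words TTTCCCGC, TTTCGCGC, TTTGCCGC and TTTGGCGC, or the same words read on the other strand (GCGGGAAA, GCGCGAAA, GCGGCAAA and GCGCCAAA).
E2F1 (chr20:33686386-33686485, minus strand): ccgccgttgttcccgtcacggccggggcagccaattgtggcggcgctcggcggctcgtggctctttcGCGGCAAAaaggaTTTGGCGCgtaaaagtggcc
E2F2 (chr1:23531234-23531333, minus strand): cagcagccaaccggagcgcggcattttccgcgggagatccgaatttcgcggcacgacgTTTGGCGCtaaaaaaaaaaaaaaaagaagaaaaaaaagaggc
PCNA (chr20:5126623-5126722, minus strand): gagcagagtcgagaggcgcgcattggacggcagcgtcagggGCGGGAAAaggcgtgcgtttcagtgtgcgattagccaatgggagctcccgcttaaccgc
MCM6 (chr2:135876444-135876543, minus strand): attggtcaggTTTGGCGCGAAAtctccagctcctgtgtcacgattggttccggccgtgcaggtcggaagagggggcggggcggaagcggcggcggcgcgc
PRIM2 (chr6:57314705-57314804, plus strand): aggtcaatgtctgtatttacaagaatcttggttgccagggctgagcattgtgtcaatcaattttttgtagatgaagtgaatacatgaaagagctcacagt
In E2F1 a pair of words lies close to the start, and in MCM6 a word and its neighbour on the other strand overlap. RefSeq windows of 250 bases before to 50 after the start were matched for 35 of the 40 genes. There were 46 windows because some genes have several starts. CCNE2, GINS4, MCM4, MCM5 and POLD3 had no window and were not searched for words. An E2F word on either strand was found for 21 of the 35 genes and in 47.8% of their windows, against 3.31% of all 35116 RefSeq promoter windows of this length. In the 100 bases before the start the shares were 28.3% and 1.15%. The CCAAT box (CCAAT, or ATTGG on the other strand) was found in 54.3% of the members' windows and 34.6% of all windows. None of the E2F words contains it. A match is a description of these letters and not a measured site. CDT1 held an E2F word, and CCNE1, MCM10 and CDC45 held none in these windows. The others without a word were FEN1, CHAF1A, CHAF1B, ORC1, ORC6, POLD1, PRIM1, PRIM2, RFC2, RFC4 and RFC5. A link between these words and the transcript levels was not tested.

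Transcript levels are given as CPM (count share of a library, in parts per 1000000) after scaling by edgeR's TMM factors. Total counts per library lay between 15480493 and 23262141, and the counts behind a single member in a single library lay between 50 (CCNE2) and 13566 (MCM7). The targeted gene KDM6A stood at 32 and 27.9 CPM in the control DMSO libraries, at 14.7 and 15.6 with sgUTX_2 and at 49.4 and 46.2 with sgUTX_4. With SGC0946 it stood at 35.1 and 34.5, at 14.4 and 15.9, and at 43.2 and 48.9. It was thus lower than control with one guide and higher with the other, and RNA levels do not show whether the protein was lost, so "sgUTX" means the libraries labelled UTX knockout. The control DMSO libraries stood apart in the share of counts taken by 81 ribosomal protein genes (17.7% and 18.9%, against 11% to 13.1% in the other 10 libraries). Myeloid identity genes (8 of 8 detected) summed to 1442 to 1521 CPM in control and 1205 to 1285 in sgUTX cells with DMSO. With SGC0946 they summed to 3043 to 3056 and 1725 to 1902. Of the 8, 5 were called lower and 1 higher in sgUTX cells in DMSO, and 6 lower and 1 higher in SGC0946. With SGC0946 against DMSO, 7 rose and 1 fell in control cells, and 6 rose and 0 fell in sgUTX cells. The hemoglobin genes HBB, HBA1 and HBA2 had no count in any library. Markers of lymphoid, megakaryocyte and adherent cells were low, and each list summed lower in sgUTX than in control libraries of the same treatment. The 6 lymphoid markers, with MS4A1 at 0 throughout, summed to 38.8 to 39 CPM in control and 17 to 22 in sgUTX DMSO libraries, and to 41.5 to 42.7 and 20.9 to 24.8 with SGC0946. All 4 lymphoid markers tested were called lower in sgUTX cells in both treatments. The 5 megakaryocyte markers, with PF4 and PPBP at 0, summed to 18.1 to 21.2 and 7.06 to 10.4 CPM in DMSO, and to 13.9 to 14.5 and 5.78 to 8.78 with SGC0946. The 6 markers of adherent cells summed to 12.1 to 13.3 and 2.19 to 3.4 CPM in DMSO, and to 11.3 and 6.46 to 10.2 with SGC0946. In each treatment 2 of 3 megakaryocyte markers tested and 1 of 4 adherent cell markers tested were called lower in sgUTX cells. The rest were not called. In DMSO 1 adherent cell marker was higher with sgUTX_4 than with sgUTX_2. The part of these shifts in the results below was not tested.

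Summed over the 40 genes, the level was 3144 and 3017 CPM in the control DMSO libraries and 6068, 6050, 5658 and 5825 in the sgUTX DMSO libraries. With SGC0946 the sums were 3600 and 3547 in control cells and 5198, 5117, 5221 and 5232 in sgUTX cells. The sgUTX libraries were therefore the higher ones in both treatments, without overlap, and SGC0946 brought the 2 kinds of cell closer from both sides. The ratio of the means was 1.92 in DMSO and 1.45 in SGC0946. A set of 20 mitosis genes, which mark the G2 and M phases, summed to 2500 to 2612 and 2398 to 2651 CPM in control and sgUTX DMSO libraries, ranges that overlap. With SGC0946 the mitosis sums were 2662 to 2703 in control and 2731 to 2879 in sgUTX libraries, higher in sgUTX without overlap. As unscaled shares of all counts, the mitosis genes took 0.213% to 0.232% in control and 0.252% to 0.278% in sgUTX DMSO libraries, which do not overlap either.

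**Figure D1:**
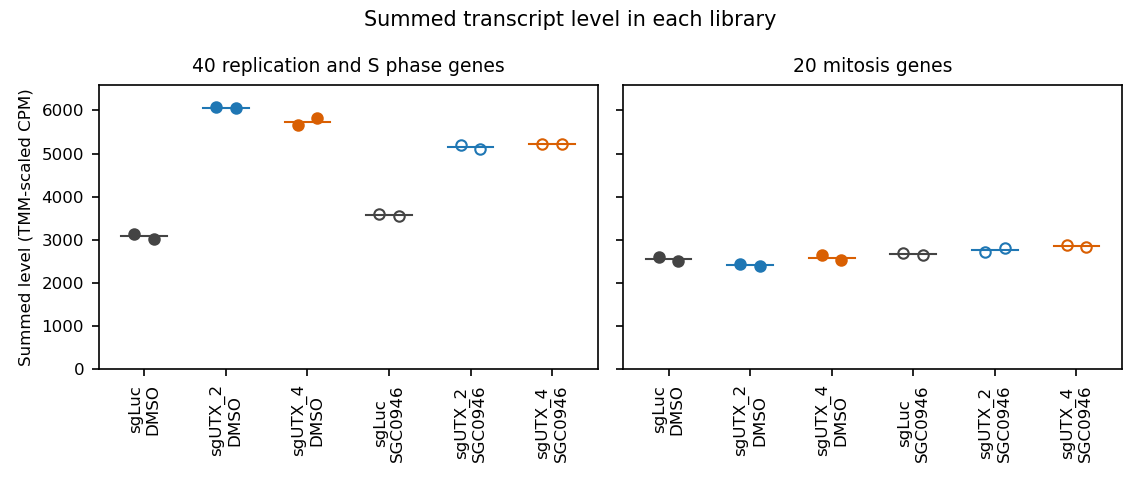
Summed level (TMM-scaled CPM, vertical axis) of the 40 replication and S phase genes (left) and of 20 mitosis genes (right) in each of the 12 libraries, by guide and treatment. Points are libraries and lines are the means of 2, and the replication genes lie at 5117 CPM or more in every sgUTX library and at 3600 or less in every control library.

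Per kilobase of exonic sequence, the levels in control DMSO libraries ran from 0.94 CPM per kilobase for CCNE2 to 110 for CDT1. PCNA followed at 93.5. The length is that of all annotated exons of a gene joined, not of the transcripts present, so the order of genes is approximate. In the sgUTX DMSO libraries PCNA stood first at 213, ahead of MCM3 at 142 and MCM7 at 130, and CDT1 was at 90.6. The lowest there was POLA2, the accessory subunit of polymerase alpha, at 2.19. In DMSO, PCNA thus stood below CDT1 in control cells and above it in sgUTX cells. With SGC0946 it stood above CDT1 in control cells as well (166 against 53.4), as in sgUTX cells (207 against 67).

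The first comparison asked which of the genes differ between sgUTX and control cells in DMSO. Of the 40, 37 were higher in sgUTX cells, 0 were lower and 3 (ORC1, CDT1 and PRIM2) were not called at an adjusted p under 0.05. No member was lower at an unadjusted p under 0.05 in edgeR either, and DESeq2 called 36 higher and 0 lower. Over all 15060 genes tested, 28.7% were higher and 32.3% lower. The median log2 difference was 1.10 for the members and -0.01 for all genes. In 36 members every sgUTX library lay above both control libraries, as did 32.3% of all genes.

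The largest differences were in the regulators of S phase entry, where 4 of 4 genes rose. CCNE2, a cyclin E that activates CDK2, was at 4.48 and 3.79 CPM in the control DMSO libraries and at 27.5, 28.6, 21.3 and 21.5 in the sgUTX DMSO libraries. CCNE1, the other cyclin E, was at 4.36 and 5.83 against 19.8, 18.4, 18.9 and 18.6. For both cyclins the lowest sgUTX library was more than 3 times the highest control library. The log2 difference was 2.57 ± 0.16 (SE) for CCNE2 (adjusted p = 5.92e-12) and 1.91 ± 0.14 for CCNE1 (adjusted p = 6.81e-11). CCNE2 shares 37% of its exonic bases with INTS8 on the opposite strand, and without a stated use of strand their reads cannot be told apart. INTS8 itself lay between 68.7 and 98.5 CPM over all libraries, far above CCNE2. Its log2 difference was -0.359 in this comparison (adjusted p = 0.000158). The part of INTS8 reads in the CCNE2 values, here and in the comparisons with SGC0946, was not tested. E2F1, a transcription factor that activates S phase genes, was at 17.8 and 16.3 CPM in control and at 58.8, 58.3, 55.4 and 60.7 in sgUTX libraries. E2F2, a related activator, was at 10.3 and 12.8 against 37.6, 41.4, 29.1 and 37.2. Both E2F genes rose, by 1.77 ± 0.09 for E2F1 (adjusted p = 2.14e-13) and 1.66 ± 0.14 for E2F2 (adjusted p = 3.06e-09).

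Among the 5 licensing genes 3 rose, and the level of CDT1 did not follow that of CDC6. CDC6, which helps to load the helicase, was at 34 and 30.4 CPM in control and at 97.1, 88.5, 86 and 85.8 in sgUTX DMSO libraries. Its log2 difference was 1.47 ± 0.08 (adjusted p = 2.02e-13). CDT1, its loading partner, was at 372 and 360 CPM in control and at 340, 342, 231 and 296 in sgUTX libraries, all 4 below control, with the sgUTX_4 libraries lowest. The difference of -0.27 ± 0.18 was not called (adjusted p = 0.218). In a fit that gave each guide its own mean it was -0.29 (adjusted p = 0.00812), and under scaling by library size alone it was 0.00. ORC1, the largest subunit of the origin recognition complex, was at 87.3 and 87.4 CPM in control and at 105, 112, 83.5 and 92.1 in sgUTX libraries, which lay on both sides of control (0.17 ± 0.10, adjusted p = 0.153). ORC1 was called higher with each guide given its own mean (0.16, adjusted p = 0.018), by library size alone (0.45, adjusted p = 0.00154), with no filter (0.25, adjusted p = 0.0031), with sgUTX_2 alone (0.32, adjusted p = 0.000133) and without sgUTX_4 DMSO replicate 1 (0.24, adjusted p = 0.0169). With sgUTX_4 alone it was at 0.01 (adjusted p = 0.93). ORC6, another subunit of the complex, and GMNN, the gene of geminin, rose by 0.81 ± 0.07 and 0.78 ± 0.07.

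All 6 subunits of the helicase rose. MCM2 was at 171 and 154 CPM in control and at 308, 320, 312 and 314 in sgUTX DMSO libraries. MCM3 was at 221 and 202 against 541, 531, 495 and 514. MCM4 was at 257 and 237 against 601, 577, 544 and 540. The 4 sgUTX libraries of each subunit lay within a narrow band far above the 2 control libraries. MCM5 was at 137 and 134 CPM against 271, 281, 264 and 272. MCM6 was at 173 and 172 against 412, 392, 422 and 406. MCM7 was at 308 and 295 against 570, 595, 556 and 562. The log2 differences ran from 0.92 ± 0.06 for MCM7 to 1.30 ± 0.06 for MCM3 (adjusted p = 8.81e-12 and 6.61e-14), with MCM2 at 0.95, MCM5 at 1.00, MCM4 at 1.20 and MCM6 at 1.24. MCM2 overlaps a clone-named gene (AC023593.1) over 22.7% of its exonic bases, and that gene stood at 0.623 CPM or less in every library.

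**Figure D2:**
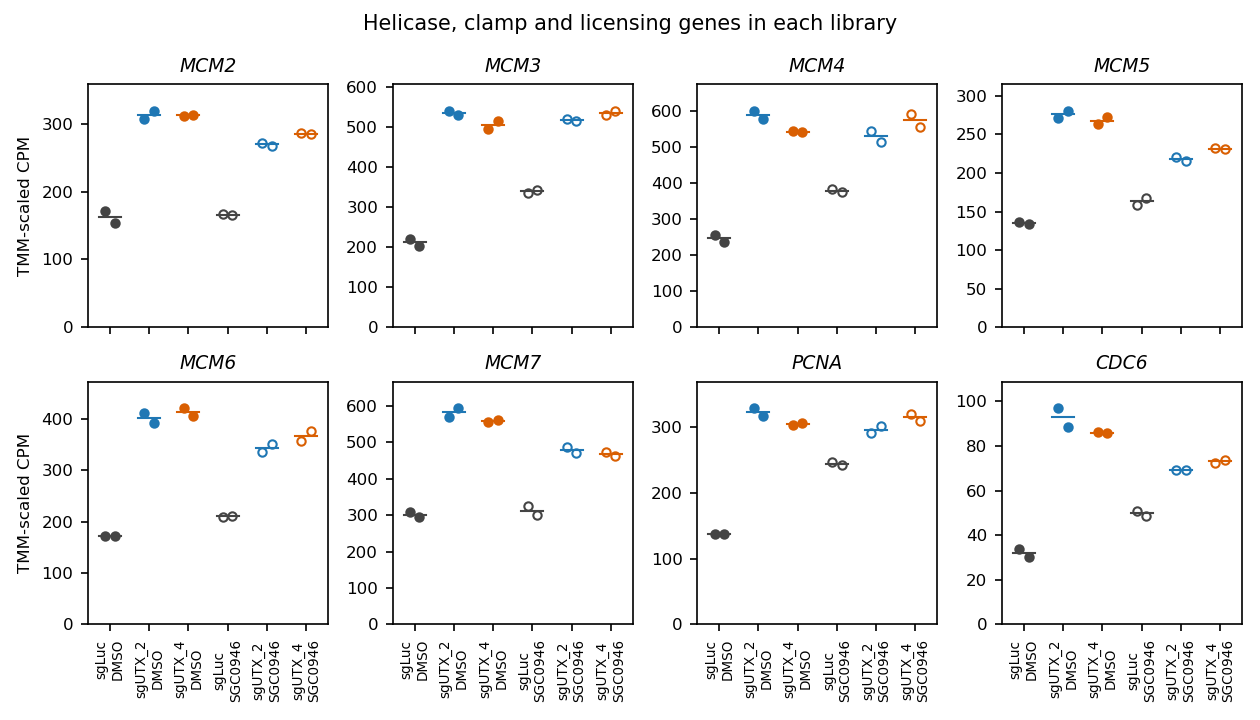
Level (TMM-scaled CPM, vertical axis) of MCM2 to MCM7, of the clamp gene PCNA and of the licensing gene CDC6 in each library, by guide and treatment (horizontal axis). Points are libraries, filled for DMSO and open for SGC0946, and lines are the means of 2, and for each of the 8 genes the sgUTX libraries lie above the control libraries of the same treatment.

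The 6 genes of helicase activation also all rose. MCM10, which is needed to set the assembled helicase in motion, was at 24 and 24.9 CPM in control and at 94, 90.2, 76.9 and 85.6 in sgUTX DMSO libraries. CDC45, which joins MCM2-7 in the active helicase, was at 33 and 28.7 against 103, 102, 105 and 109. Both stood at more than 3-fold the control mean. The differences were 1.83 ± 0.08 for MCM10 (adjusted p = 2.93e-14) and 1.76 ± 0.07 for CDC45 (adjusted p = 6.23e-15). The 4 GINS subunits, the other partners of the helicase, moved less, between 0.76 ± 0.08 for GINS1 and 1.16 ± 0.09 for GINS4. GINS2 was at 24.3 and 26.1 CPM in control and at 53.2, 50, 55.4 and 56.9 in sgUTX libraries. GINS4 was at 23.3 and 28.7 against 57, 55.3, 61.5 and 57.7.

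Of the 8 polymerase and primase genes 7 were called higher, over a wide range of differences. POLA1, the catalytic subunit of polymerase alpha, was at 36 and 33.2 CPM in control and at 108, 109, 96.9 and 103 in sgUTX DMSO libraries, a difference of 1.59 ± 0.08 (adjusted p = 8.56e-14). POLA2 was at 6.66 in both control libraries against 11.2, 12.4, 12.3 and 14.3 (0.91 ± 0.17, adjusted p = 6.23e-05). The primase subunits of the same complex barely moved. PRIM1, the catalytic primase, was at 32.7 and 37.2 CPM in control and at 44.9, 42, 36.8 and 40 in sgUTX libraries, so that the groups overlapped. Its difference of 0.23 ± 0.10 was just past the threshold (adjusted p = 0.0443), and leaving out control DMSO replicate 1 took it to 0.14 (adjusted p = 0.374). It was also lost without either control SGC0946 library, either sgUTX_2 DMSO library or sgUTX_4 DMSO replicate 2 (PRIM1 at 0.18 to 0.24, adjusted p = 0.0507 to 0.119). PRIM2, the regulatory primase subunit, lay between 49.4 and 53.5 CPM in control and between 51.3 and 55.3 in sgUTX libraries (0.05 ± 0.07, adjusted p = 0.594). POLE, the catalytic subunit of the leading strand polymerase epsilon, was at 66.5 and 63.4 against 128, 170, 137 and 142 (1.15 ± 0.09). POLD1, the catalytic subunit of polymerase delta, was at 148 and 129 against 208, 216, 185 and 198 (0.54 ± 0.07). The accessory subunits POLD3 and POLE2 rose by 0.83 ± 0.08 and 0.88 ± 0.12.

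PCNA, the clamp that tethers polymerases to DNA, was at 138 and 137 CPM in control and at 329, 317, 302 and 306 in sgUTX DMSO libraries. The difference was 1.19 ± 0.06 (adjusted p = 2.17e-13). All 4 loader subunits rose, RFC3 by 1.09 ± 0.07 and RFC2, RFC4 and RFC5 by 0.52 to 0.72. RFC2 was at 73.1 and 77.8 CPM against 107, 99.4, 111 and 115, and RFC4 was at 67.8 and 69.3 against 115, 110, 115 and 111. FEN1, the nuclease that trims Okazaki fragment flaps, was at 58.2 and 59.7 against 149, 144, 134 and 133 (1.25 ± 0.07, adjusted p = 3.95e-13). The ligase gene LIG1, which seals those fragments, rose by 0.58 ± 0.08. The 2 genes of fragment maturation thus rose by different amounts.

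CHAF1A and CHAF1B code for subunits of the chromatin assembly factor that deposits histones behind the fork. CHAF1B was at 18.4 and 19.3 CPM in control and at 45.9, 45.6, 42.9 and 46.2 in sgUTX DMSO libraries (1.26 ± 0.09, adjusted p = 2.32e-11). UHRF1, which helps to copy DNA methylation onto the new strand, was at 141 and 124 against 322, 311, 312 and 319 (1.25 ± 0.07, adjusted p = 2.23e-13). CHAF1A rose by 1.22 ± 0.08 and TIPIN, part of a complex that protects stalled forks, by 1.17 ± 0.12. These 4 genes rose by nearly the same amount, between 1.17 and 1.26.

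**Figure D3:**
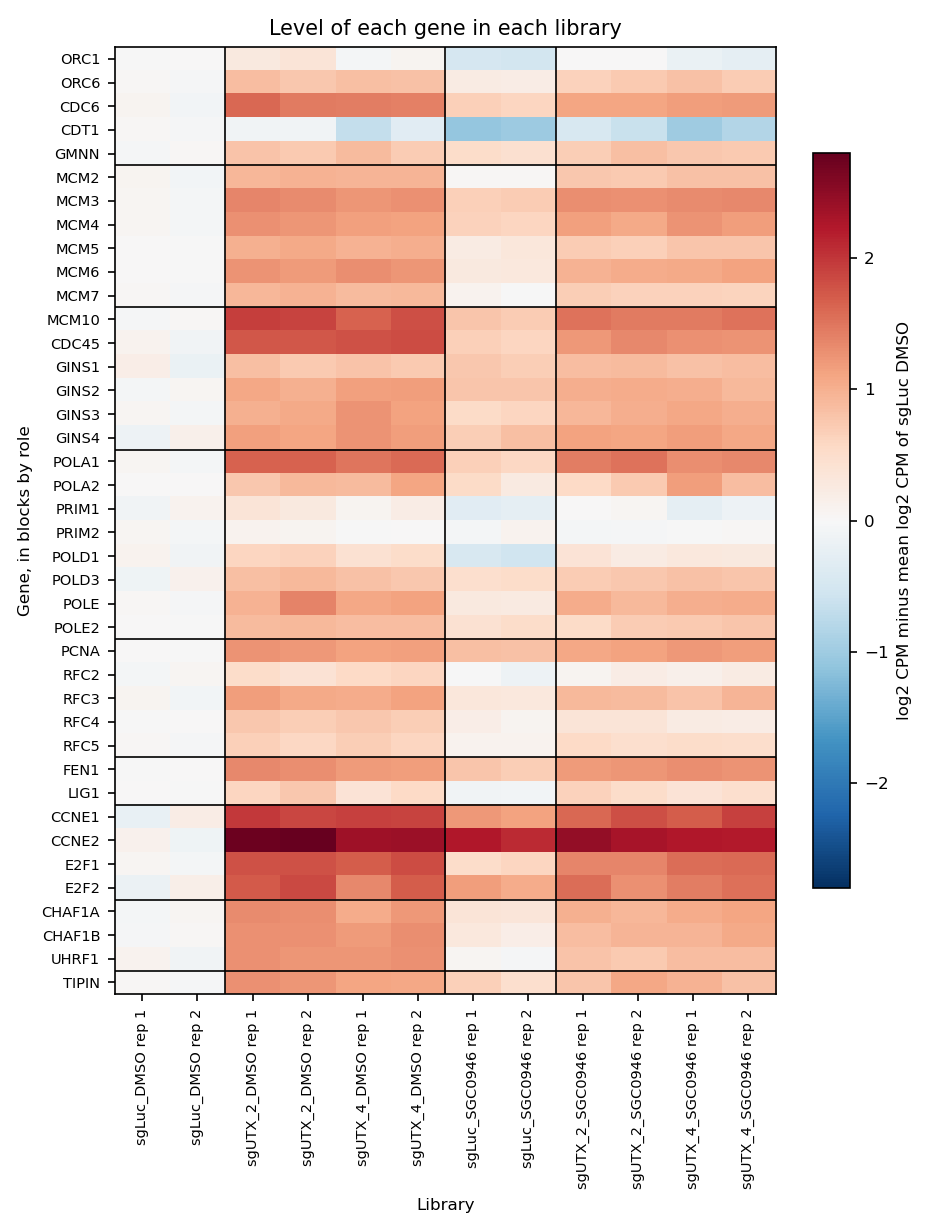
Level of each of the 40 genes (rows, in blocks by role) in each of the 12 libraries (columns), as log2 CPM minus the mean log2 CPM of the 2 control DMSO libraries. Red is higher and blue lower than control DMSO; CDT1 (at or below its control DMSO level in every other library) and PRIM2 (49.2 to 55.3 CPM throughout) stand out from the rest.

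Related genes outside the 40 gave mixed counts in the same comparison. Of 37 other replication genes 27 were higher and 4 lower (median 0.63). The largest changes were in CLSPN, the checkpoint adaptor claspin (2.13 ± 0.11), in POLD4, the smallest subunit of polymerase delta, which fell (-1.79 ± 0.13), and in HELLS, a chromatin remodeller (1.75 ± 0.09). Of 18 other genes of G1/S control 13 were higher and 2 lower (median 0.70), led by the phosphatase gene CDC25A (1.81 ± 0.09). Of the 20 mitosis genes 5 were higher and 8 lower (median -0.08). KIF20A and UBE2C fell by 0.93 and 0.83 on the log2 scale, and MKI67 rose by 0.82.

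The second comparison asked what SGC0946 did in control cells. Of the 40 genes 25 rose, 4 fell (CDT1, ORC1, POLD1 and PRIM1) and 11 were not called. Over all genes 24.7% rose and 24.2% fell, and the median log2 change was 0.44 for the members and 0.00 for all genes. This comparison and the first share the 2 control DMSO libraries, so their values are given side by side without a measure of overlap.

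CCNE2 was at 19.4 and 17.5 CPM in the control SGC0946 libraries, against 4.48 and 3.79 in DMSO, and rose 4.43-fold (log2 2.15 ± 0.18, adjusted p = 1.54e-09). CCNE1 was at 11.6 and 11 CPM with SGC0946 and E2F2 at 25.7 and 23.4, rises of 1.16 ± 0.16 and 1.09 ± 0.16 (adjusted p = 2.79e-06 and 9.27e-06). All 3 lay far above both DMSO libraries. The share of all genes without overlap between SGC0946 and DMSO libraries was not computed, for control or for sgUTX cells. E2F1, at 24.3 and 25.7 CPM, rose by 0.55 ± 0.11. The 4 regulators of S phase entry thus all rose, E2F1 least.

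In the licensing group CDT1 was at 174 and 182 CPM with SGC0946 against 372 and 360 with DMSO, a fall of -1.04 ± 0.21 (adjusted p = 0.00301). ORC1 was at 63.1 and 61.5 CPM and fell as well (-0.49 ± 0.12, adjusted p = 0.00248). CDC6, at 50.9 and 48.8 CPM, rose by 0.63 ± 0.09 and GMNN by 0.48 ± 0.08. Licensing factors therefore moved in opposite directions within the same cells. Of the helicase subunits, MCM3 (336 and 343 CPM) rose by 0.68 ± 0.07 and MCM4 (383 and 374) by 0.61 ± 0.08. MCM5 (159 and 168) and MCM6 (209 and 212) rose by 0.27 ± 0.07 and 0.28 ± 0.07. MCM2 (167 and 165) and MCM7 (324 and 301) were not called, at 0.03 ± 0.07 and 0.05 ± 0.07. The 6 subunits of the ring thus ran from no called change to a rise of 1.61-fold for MCM3.

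All 6 genes of helicase activation rose, between 0.57 ± 0.12 for GINS3 and 0.77 for GINS2 and GINS4. MCM10 was at 41.7 and 39.9 CPM, CDC45 at 48.5 and 46.6, GINS2 at 42.8 and 43.4, and GINS4 at 41.7 and 46.5. PCNA, at 246 and 242 CPM, rose by 0.83 ± 0.07 (adjusted p = 1.23e-09), and FEN1, at 101 and 95.3, by 0.74 ± 0.08 (adjusted p = 3.2e-08). Each of these 8 genes lay above its DMSO level in both libraries. POLA1, at 54.9 and 51.7 CPM, rose by 0.62 ± 0.09 while POLD1, at 101 and 93.8, fell by 0.51 (SE 0.08, adjusted p = 2.3e-05). PRIM1, at 27.8 and 29.4 CPM, was called lower by a narrow margin (-0.29 ± 0.11, adjusted p = 0.0426), and DESeq2 did not call it (adjusted p = 0.101). The PRIM1 call was also lost without control DMSO replicate 2, either control SGC0946 library or sgUTX_4 DMSO replicate 2, where PRIM1 lay between -0.33 and -0.20 (adjusted p = 0.0514 to 0.285). POLE (78.1 and 77.8 CPM) rose by 0.26 ± 0.10, a call that was lost without any 1 of the 4 control libraries (POLE at 0.23 to 0.30, adjusted p = 0.0747 to 0.174). POLA2 (9.72 and 7.93 CPM) had a change of 0.40 ± 0.20 that was not called. The clamp loader subunits RFC2 (74.5 and 68.8 CPM), RFC4 (77.4 and 72.7) and RFC5 were not called, and RFC3 rose by 0.31 ± 0.08. RFC3 was not called without control DMSO replicate 2 (0.24, adjusted p = 0.0527). UHRF1 (137 and 130 CPM) and CHAF1B (23.1 and 21.5) had changes of 0.01 ± 0.07 and 0.24 ± 0.10 and were not called.

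Of the 37 other replication genes 16 rose and 4 fell (median 0.22), with ASF1B, a histone chaperone, at 1.10 ± 0.08. Of the 18 other G1/S genes 9 rose and 4 fell, and E2F5, a repressor E2F, fell by 1.09 on the log2 scale. Of the mitosis genes 5 rose and 7 fell (median -0.12), with MKI67 at 1.11 ± 0.08.

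The third comparison asked what SGC0946 did in sgUTX cells, and shares no library with the second. Of the 40 genes 0 rose, 21 fell and 19 were not called. Over all genes 17.4% rose and 16.4% fell, and the median log2 change was -0.20 for the members and 0.00 for all genes. No member had a rise at an unadjusted p under 0.05 in edgeR, and DESeq2 called 0 higher and 21 lower. The changes were small, and the largest was a fall of -0.50 ± 0.05 in CDC45.

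CDC45 was at 70.9, 77.5, 74.3 and 73.6 CPM in the sgUTX SGC0946 libraries, all below the 102 to 109 of the sgUTX DMSO libraries (adjusted p = 9.52e-08). UHRF1 was at 229, 220, 242 and 242 CPM, below its 311 to 322 in DMSO (-0.44 ± 0.05, adjusted p = 3.4e-07). RFC4, at 88.1, 88.5, 79.8 and 78.8 CPM, fell by 0.43 (SE 0.05, adjusted p = 7.7e-07). In each of the 3 the treated and untreated libraries did not overlap. CDT1 was at 268, 236, 183 and 207 CPM, which overlapped its DMSO range, and was called at the edge of the threshold (-0.44 ± 0.15, adjusted p = 0.0496). The CDT1 call held without sgUTX_2 SGC0946 replicate 1 and without sgUTX_4 DMSO replicate 1, and was lost when any other single library was left out (-0.35 to -0.46, adjusted p = 0.0692 to 0.123). MCM10, at 70.1, 66.4, 66.5 and 69.7 CPM, and RFC2, at 79.3, 87.3, 83 and 88.7, both fell by 0.35 (SE 0.06). CDC6, at 69.3, 69.2, 72.2 and 73.8 CPM, fell by 0.33 (SE 0.06). These 3 lay below every sgUTX DMSO library. For such a lack of overlap no share of all genes was computed.

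Within the helicase MCM5 (221, 216, 232 and 231 CPM) and MCM7 (486, 471, 473 and 463) each fell by 0.27, MCM6 (336, 352, 358 and 377) by 0.20 and MCM2 (272, 268, 287 and 285) by 0.17. MCM3 (521, 514, 530 and 539 CPM) and MCM4 (544, 514, 592 and 556) were not called, at 0.02 ± 0.05 and -0.04 ± 0.05. MCM3 and MCM4 were also the subunits with the largest rise in control cells. PCNA (290, 301, 320 and 309 CPM) and FEN1 (135, 138, 145 and 140) were likewise not called, at -0.04 ± 0.05 and -0.00 ± 0.05, with ranges that overlapped those in DMSO.

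Of the S phase entry genes E2F1, at 43.8, 43.6, 50 and 50.9 CPM, fell by 0.31 (SE 0.06, adjusted p = 0.000565), and CCNE2, at 22.5, 20.4, 19.3 and 19.1, by 0.28 (SE 0.10, adjusted p = 0.0273). CCNE2 was not called without sgUTX_2 DMSO replicate 1 or 2, sgUTX_2 SGC0946 replicate 2, or sgUTX_4 SGC0946 replicate 1 or 2 (-0.28 to -0.21, adjusted p = 0.0546 to 0.12). CCNE1 (15.3, 17.5, 16.3 and 18.9 CPM) and E2F2 (34, 27.8, 31.1 and 33.6) were not called, and without sgUTX_4 DMSO replicate 1 E2F2 was called lower (-0.30, adjusted p = 0.00647). PRIM1, at 34.9, 36.4, 29.3 and 31.6 CPM, fell by 0.31 (SE 0.08) and ORC1, at 88, 88.3, 77.2 and 73.8, by 0.26 (SE 0.08). The ORC1 call was lost without sgUTX_2 DMSO replicate 1 or either sgUTX_4 SGC0946 library (-0.24 to -0.22, adjusted p = 0.0541 to 0.0642). POLA1 (92.5, 98.6, 84.9 and 88 CPM) fell by 0.20 and POLD1 (180, 162, 169 and 168) by 0.25. CHAF1B, at 34.3, 36.2, 36.4 and 39.4 CPM, fell by 0.31 (SE 0.06). The GINS subunits, among them GINS2 (50.6, 51.6, 51.1 and 47.2 CPM) and GINS4 (56.4, 55.8, 58.3 and 54.9), were not called, nor were POLE (134, 122, 132 and 133) and POLA2 (9.85, 11, 14.9 and 12.1). Without sgUTX_2 DMSO replicate 1 POLE was called lower (-0.20, adjusted p = 0.0205). The remaining calls were small falls in RFC3, CHAF1A and TIPIN, and TIPIN was not called without sgUTX_2 DMSO replicate 1, sgUTX_2 SGC0946 replicate 1 or sgUTX_4 SGC0946 replicate 2 (-0.23 to -0.21, adjusted p = 0.0627 to 0.0709).

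Of the other replication genes 5 rose and 8 fell (median -0.08), led by a fall of -0.56 ± 0.06 in ASF1A, a histone chaperone. Of the other G1/S genes 0 rose and 9 fell, among them the pocket protein genes RBL1 (-0.34) and RB1 (-0.29). The mitosis genes moved the other way, with 9 higher, 0 lower and 11 not called (median 0.11), led by KIF20A at 0.52 ± 0.09.

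The SGC0946 response therefore had a different sign in control and sgUTX cells for a part of the genes. There were 11 genes called higher with SGC0946 in control cells and lower in sgUTX cells: CCNE2, CDC45, CDC6, CHAF1A, E2F1, MCM10, MCM5, MCM6, POLA1, RFC3 and TIPIN. With sgUTX_4 alone, 4 of the 11 were not called in sgUTX cells: CCNE2 (-0.16), CHAF1A (-0.05), E2F1 (-0.20) and TIPIN (-0.19), with adjusted p = 0.321, 0.631, 0.0514 and 0.224. Another 14, among them PCNA, FEN1, MCM3, MCM4 and the GINS genes, were higher in control cells and not called in sgUTX cells. The 4 genes lower in both were CDT1, ORC1, POLD1 and PRIM1. A further 6 (CHAF1B, MCM2, MCM7, RFC2, RFC4 and UHRF1) were lower in sgUTX cells and not called in control cells. LIG1, ORC6, POLA2, PRIM2 and RFC5 were called in neither. The share of all genes with each pair of calls was not computed, so the counts cannot be read as particular to the members. In the separate comparisons 24.7% of all genes rose in control cells and 16.4% fell in sgUTX cells.

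**Figure D4:**
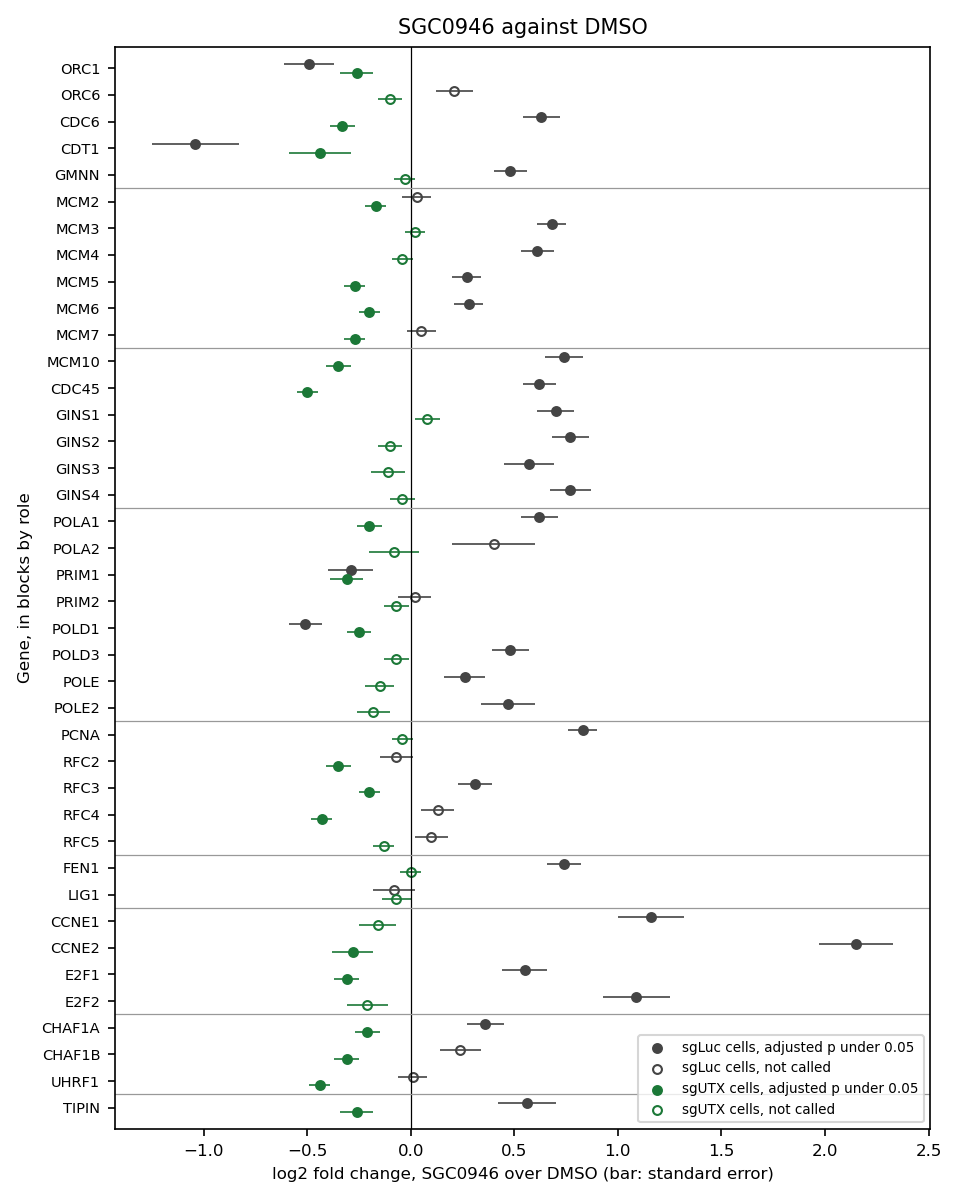
Log2 fold change with SGC0946 over DMSO (horizontal axis, bars are standard errors) of the 40 genes in control (grey) and sgUTX (green) cells, in blocks by role, filled where the adjusted p was under 0.05. In control cells 25 filled points lie right of 0 and 4 left of it, and in sgUTX cells 21 lie left of 0 and none right of it.

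The test of the difference between the 2 responses (sgUTX minus control, the interaction term) called 31 of the 40 genes, all 31 with the more negative response in sgUTX cells, and 0 with the more positive. At an unadjusted p under 0.05 edgeR gave 2 genes with the more positive response, CDT1 and POLD1, and DESeq2 called 0. Over all genes, at an adjusted p under 0.05, 18.3% were called in the positive and 16.5% in the negative direction. The median difference was -0.56 for the members and 0.02 for all genes. It was largest for CCNE2 (-2.43 ± 0.21, adjusted p = 8.32e-09), CCNE1 (-1.32 ± 0.18, adjusted p = 8.59e-06) and E2F2 (-1.30 ± 0.18, adjusted p = 1.81e-05). Next came CDC45 at -1.12 ± 0.10 and MCM10 at -1.09 ± 0.11, then CDC6 at -0.96 ± 0.10, GINS2 at -0.88 ± 0.11 and PCNA at -0.87 ± 0.08. By role, 6 of 6 helicase activation genes, 4 of 4 entry regulators, 3 of 3 chromatin genes and 5 of 6 helicase subunits differed, against 4 of 8 polymerase and primase genes. The 9 genes not called were CDT1 (0.60 ± 0.26), ORC1 (0.22 ± 0.14), POLD1 (0.26 ± 0.10), MCM2, POLA2, PRIM1, PRIM2, RFC5 and LIG1. Leaving out single libraries ended the calls of ORC6, POLE and RFC2. Without control DMSO replicate 2 POLD1 was called in the positive direction (0.36, adjusted p = 0.0219). Outside the 40, 2 of 37 other replication genes differed in the positive and 15 in the negative direction (ASF1B -1.18, HELLS -1.17, CLSPN -1.13). For the mitosis genes the counts were 8 positive and 2 negative.

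The fourth comparison asked which of the genes still differed between sgUTX and control cells under SGC0946, and shares no library with the first. Of the 40, 34 were higher in sgUTX cells, 0 were lower and 6 were not called (CCNE2, CDT1, GINS1, POLE2, PRIM1 and PRIM2). None was lower at an unadjusted p under 0.05 in edgeR, and DESeq2 called 33 higher and 0 lower. Over all genes 27.7% were higher and 29.3% lower. The median log2 difference was 0.49 for the members and 0.01 for all genes. In 37 members every sgUTX library lay above both control libraries, as did 33.8% of all genes. Without control SGC0946 replicate 2 the count of higher members was 28, and E2F2, GINS2, POLA2, RFC2, RFC4 and TIPIN lost their calls.

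E2F1 stood first here, at 43.8, 43.6, 50 and 50.9 CPM in sgUTX against 24.3 and 25.7 in control cells (0.91 ± 0.09, adjusted p = 5.28e-09). POLD1, at 180, 162, 169 and 168 against 101 and 93.8 CPM, differed by 0.80 ± 0.07 (adjusted p = 3.32e-09). UHRF1, at 229, 220, 242 and 242 against 137 and 130 CPM, differed by 0.80 ± 0.06 (adjusted p = 3.33e-10). All 3 were more than 1.5-fold higher in sgUTX cells and without overlap. They were followed by POLA1 (0.77 ± 0.07), MCM6 (0.76 ± 0.06), MCM2 (0.75 ± 0.06), MCM10 (0.74 ± 0.08) and POLE (0.74 ± 0.09). The other helicase subunits differed by 0.46 to 0.63 and PCNA by 0.32 ± 0.06. CCNE2, first in DMSO, was not called under SGC0946 (0.14 ± 0.12, adjusted p = 0.341), and its lowest sgUTX library (19.1 CPM) lay below its highest control library (19.4 CPM). CDT1 was at 183 to 268 CPM in sgUTX and at 174 and 182 in control cells, a difference of 0.33 ± 0.18 that was not called. ORC1, at 73.8 to 88.3 against 61.5 and 63.1 CPM, was higher under SGC0946 (0.40 ± 0.10, adjusted p = 0.00342).

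Comparing the 2 treatments, 33 genes were higher in sgUTX cells in both, 4 (CCNE2, GINS1, POLE2 and PRIM1) were called in DMSO and not in SGC0946, and ORC1 was called in SGC0946 and not in DMSO. The difference between sgUTX and control was larger in DMSO than in SGC0946 for 36 genes, with CDT1, LIG1, ORC1 and POLD1 as the exceptions. Whether it differed is the interaction given above, which 31 genes passed. The share of all genes was computed neither for calls in both treatments nor for a larger difference in DMSO. In the separate comparisons 28.7% of all genes were higher in DMSO and 27.7% in SGC0946. LIG1 was the steadiest of the genes that rose, at 0.58 ± 0.08 in DMSO and 0.59 ± 0.08 in SGC0946. Outside the 40, 26 of 37 other replication genes were higher and 5 lower (median 0.37), with POLD4 again lower (-1.39 ± 0.12) and DNMT1, the maintenance DNA methyltransferase that UHRF1 recruits, higher (1.01 ± 0.07). Of the mitosis genes 6 were higher and 1 lower (median 0.06).

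**Figure D5:**
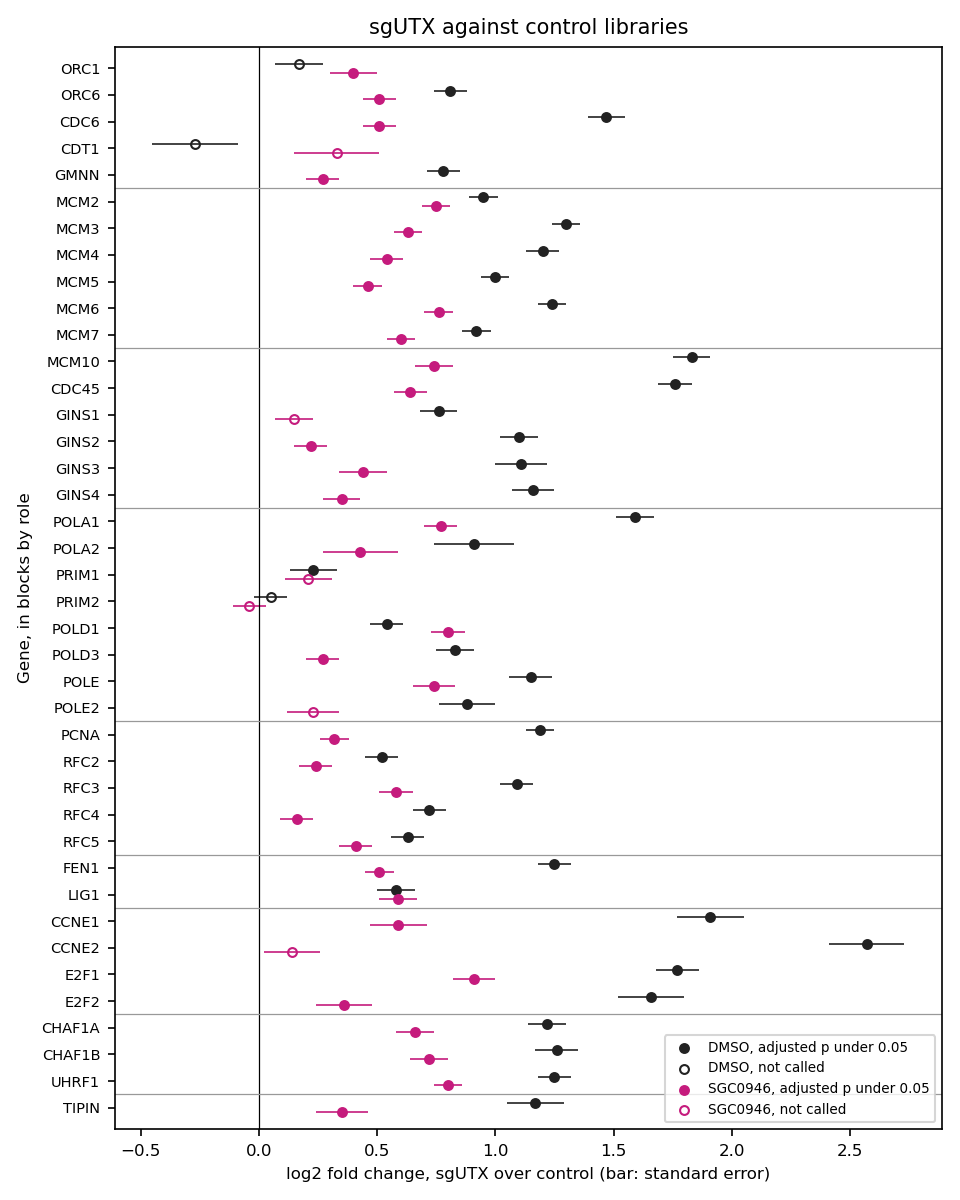
Log2 fold change of sgUTX over control (horizontal axis, bars are standard errors) of the 40 genes in DMSO (black) and in SGC0946 (magenta), in blocks by role, filled where the adjusted p was under 0.05. In DMSO 37 points and in SGC0946 34 points are filled and right of 0, and the DMSO point lies further right for 36 genes.

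The last comparison set the 2 guides against each other, because KDM6A RNA differed between them by 1.66 ± 0.10 in DMSO and 1.60 ± 0.10 in SGC0946 (sgUTX_4 over sgUTX_2, log2). In DMSO 2 of the 40 genes were lower with sgUTX_4 and 0 higher, against 3.49% of all genes called in either direction. ORC1 was at 83.5 and 92.1 CPM with sgUTX_4 and at 105 and 112 with sgUTX_2 (-0.31 ± 0.07, adjusted p = 0.00565). CCNE2 was at 21.3 and 21.5 against 27.5 and 28.6 CPM (-0.39 ± 0.10, adjusted p = 0.0274). Without sgUTX_2 DMSO replicate 2 ORC1 was at -0.27 (adjusted p = 0.0697) and CCNE2 at -0.36 (adjusted p = 0.145), and without sgUTX_4 DMSO replicate 1 they were at -0.24 (adjusted p = 0.262) and -0.39 (adjusted p = 0.279), so that neither was called. CCNE2 was also not called without either of the other 2 DMSO libraries of these guides. Without sgUTX_4 DMSO replicate 2 the count was 4. CDT1 was at 231 and 296 against 340 and 342 CPM (-0.37 ± 0.10, adjusted p = 0.0536), and DESeq2 called it in place of CCNE2. E2F2 differed by -0.25 ± 0.11 and was not called. At an unadjusted p under 0.05 the edgeR count was 10 lower and 0 higher. The 3.49% above is at an adjusted p, and the share of all genes at the unadjusted threshold is not given here.

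In SGC0946 no member was called between the guides, against 3.01% of all genes. The unadjusted edgeR count was 2 higher and 6 lower, for which no share of all genes is given here either. DESeq2 called 1, CDT1, lower. CDT1 was at 183 and 207 CPM with sgUTX_4 and at 268 and 236 with sgUTX_2 (-0.37 ± 0.10, adjusted p = 0.0599), and ORC1 differed by -0.22 ± 0.07, POLA2 by 0.36 ± 0.14 and PRIM1 by -0.23 ± 0.09. Fitted with each guide alone against control, sgUTX_2 gave 38 members higher in DMSO and 35 in SGC0946, and sgUTX_4 gave 36 and 34. Of all 15060 genes, sgUTX_2 gave 4251 higher in DMSO and 4109 in SGC0946, and sgUTX_4 gave 4293 and 4113. CDT1 was called lower in DMSO with sgUTX_4 alone, at -0.47. For SGC0946 against DMSO, 22 members fell with sgUTX_2 alone and 16 with sgUTX_4 alone, where MCM2 (-0.13, adjusted p = 0.105), CCNE2, CHAF1A, E2F1 and TIPIN were not called. Of all 15060 genes, 2064 fell with sgUTX_2 alone and 1880 with sgUTX_4 alone.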

How the data were processed

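RNA was sequenced from 12 libraries as pairs of 150 bases, per the labels' protocols. The deposited values are raw read counts per gene, not normalized by the authors. STAR 2.5.1b and the build hg19 are named per the submitters' processing notes, yet the 58735 identifiers are exactly those of GENCODE 29 (GRCh38), so the build of the counts is uncertain. The sources used here give neither the counting program nor its use of strand.

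Counts were fitted in R 4.3.3 with edgeR 4.0.16 (TMM, filterByExpr, robust two-sided quasi-likelihood F-tests), with Benjamini-Hochberg adjustment over 15060 genes and calls at under 0.05. The main fit had 4 groups with the guides as replicates (8 residual degrees of freedom), and guides were compared in a fit of 6 groups. SE was computed from fold change and F. Promoter words were counted in RefSeq windows. The script was also run on simulated counts with far fewer changed genes than here, so that run does not bear on the scaling. Its outcome is not reported here. Libraries of a group differed beyond sampling noise (chi-square per gene 2.85 to 6.29), so all 12 were kept.

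The 40 members and all lists were chosen with earlier results of these data known. Values in every library are given for the 12 largest changes of the first comparison, the 8 largest of the next 4, the 4 largest between guides, MCM2 to MCM7 and PCNA; outside the members at most the 3 largest calls of a list are named. Alternatives were DESeq2 1.42.0, other scaling and filters, single guides, a replicate block and leaving out each library. Lists of erythroid, megakaryocyte, lymphoid and adherent cell markers were checked. The result of 1 erythroid marker is not reported here.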

Additional observations from a re-analysis of the deposited data

Results flagged for a closer look

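The SGC0946 response differed between sgUTX and control cells, by the test of the difference itself, for 31 of the 40 genes (edgeR's quasi-likelihood test, adjusted over all 15060 genes; over all genes 16.5% were called in this direction). Each value here is the log2 response in sgUTX cells minus that in control cells. In the origin licensing group the values were -0.96 for CDC6, -0.51 for GMNN and -0.30 for ORC6. For the helicase they were -0.67 for MCM3, -0.65 for MCM4, -0.54 for MCM5, -0.48 for MCM6 and -0.32 for MCM7. In helicase activation CDC45 stood at -1.12, MCM10 at -1.09, GINS2 at -0.88, GINS4 at -0.81, GINS3 at -0.67 and GINS1 at -0.62. Among polymerases POLA1 stood at -0.82, POLE2 at -0.65, POLD3 at -0.55 and POLE at -0.41. The clamp PCNA stood at -0.87 and its loaders RFC4, RFC3 and RFC2 at -0.56, -0.51 and -0.28, with FEN1 at -0.74. The entry regulators CCNE2, CCNE1, E2F2 and E2F1 stood at -2.43, -1.32, -1.30 and -0.86. CHAF1A, CHAF1B and UHRF1 stood at -0.56, -0.55 and -0.45, and TIPIN at -0.82. No library of the groups of 4 stood apart from the other 3 in a member's level by Dixon's criterion. The control DMSO libraries, which enter every one of these differences, were those with the highest share of ribosomal protein counts (17.7% and 18.9%), and the part of that share was not tested.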

How the results depend on the processing

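No called member changed direction in the 5 comparisons of sgUTX, control and SGC0946 under the alternatives run. Scaling by library size alone moved the median of all genes to 0.26 for sgUTX against control in DMSO and to 0.20 in SGC0946, with 66.7% and 65% of called genes higher in place of 47.1% and 48.6%. For SGC0946 in control cells the share of called genes that rose was then 60.9% in place of 50.6%, and for the difference of the responses 40.6% in place of 52.6%. The summed level ratios became 2.32 and 1.65, and relative to the shifted median 39 of the 40 members were still higher in each treatment. The count of members lower in sgUTX DMSO libraries was 1 (CDT1), not 0, with each guide given its own mean and with sgUTX_4 alone. In the difference of the responses the count in the positive direction was 3 with each guide given its own mean and with sgUTX_4 alone, and 1 with sgUTX_2 alone and with TMM without ribosomal protein genes. With single libraries left out it lay between 0 and 1. Between guides, leaving out single libraries gave 0 to 4 members lower in DMSO and 0 to 1 in SGC0946. In SGC0946 DESeq2 gave 1, no filter gave 2, and the replicate block gave 1. The cause of these changes was not tested. The E2F word share was 28.3% in the shorter window, whose fewer bases hold fewer words.

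Leaving out single libraries gave 36 to 38 members higher in sgUTX DMSO libraries, 23 to 26 higher and 3 to 4 lower with SGC0946 in control cells, 17 to 22 lower in sgUTX cells, 28 to 34 higher in sgUTX SGC0946 libraries and 29 to 33 in the difference of responses. Where a group was left with 1 library, that library was assumed to vary like the other groups. The counts of all genes in these fits are not given here. Libraries with the same replicate number did not deviate together (correlations of -0.262 to 0.157), so the replicate block is an alternative only. The replicate block gave 37 members higher in sgUTX DMSO libraries, 25 higher and 4 lower with SGC0946 in control cells, 20 lower in sgUTX cells, 34 higher in sgUTX SGC0946 libraries and 31 lower in the difference, and 3 lower between guides in DMSO.

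Changes near 0 that were not called turned sign. With library size alone CDT1 was at 0.00 (sgUTX against control in DMSO), RFC2 at 0.02 and LIG1 at 0.01 (SGC0946 in control cells), FEN1 at 0.00 (SGC0946 in sgUTX cells), PRIM2 at 0.14 (sgUTX against control in SGC0946) and LIG1 at -0.08 (difference of responses). With sgUTX_2 alone GMNN was at 0.01, MCM3 at -0.05 and LIG1 at -0.01, the last in the difference. With sgUTX_4 alone MCM4 was at 0.08, POLA2 at 0.01, PRIM2 at 0.00, POLD3 at 0.00, PCNA at 0.05 and FEN1 at 0.10, all for SGC0946 in sgUTX cells. With no filter MCM3 was at -0.00 there and LIG1 at -0.05 in the difference, and DESeq2 gave LIG1 -0.02. FEN1 was at 0.00 with guides averaged and at 0.01 with a mean of at least 1 CPM. Leaving out single libraries gave PRIM2 -0.01 to 0.11 and -0.12 to 0.05 for sgUTX against control in DMSO and in SGC0946. For SGC0946 in control cells it gave MCM2 -0.05 to 0.11, PRIM2 -0.06 to 0.10 and UHRF1 -0.07 to 0.10. In sgUTX cells it gave GMNN -0.06 to 0.00, MCM3 -0.01 to 0.04, POLA2 -0.19 to 0.01 and FEN1 -0.03 to 0.03, and in the difference PRIM1 -0.11 to 0.07 and LIG1 -0.05 to 0.07.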
